A study of Mus musculus with 23 samples.

Results

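The integrated stress response is described here through 10 of its best known genes, taken from the 24062 gene symbols of the count table: Atf4, Atf5, Ddit3, Trib3, Asns, Chac1, Fgf21, Psat1, Mthfd2 and Slc7a11. They are transcription factors and target genes of that response, listed by name, and the list was drawn up with earlier results of these data known. All 10 were in the table, all 10 passed the filter on low counts in fat, and 9 passed it in muscle, where Fgf21 did not. The study compared mice that carry altered alleles of Bub1b, the gene for the mitotic checkpoint kinase BubR1, whose shortage is known to produce early signs of ageing, with wild-type mice. RNA was sequenced from gastrocnemius muscle and from a fat depot labelled IAT, an abbreviation that the labels do not spell out.

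Each tissue had 3 genotypes. Wild-type (WT) mice carried unaltered Bub1b, with 4 muscle and 4 fat libraries. HL1002P mice carried 1 hypomorphic allele, which lowers the amount of BubR1 throughout the body, beside 1 allele with a missense change, with 4 muscle and 4 fat libraries. HH mice carried 2 hypomorphic alleles, with 3 muscle and 4 fat libraries. All mice were on a mixed 129Sve and C57BL/6 background and 8 to 10 months old. The labels give no drug or diet, do not say whether replicates were separate animals or whether muscle and fat came from the same ones, and give no sex, so p-values measure only the spread between these samples.

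Library totals were 34137821 to 55266273 counts in muscle and 22552184 to 58828571 in fat. Bub1b was at 0.726 to 0.952 CPM (counts scaled to library size) in WT muscle, 0.181 to 0.273 in HL1002P muscle and 0.326 to 0.520 in HH muscle. In fat it was at 7.08 to 11.6, 6.12 to 22.1 and 5.96 to 14.3 CPM, so its fat levels did not separate the genotypes. Summed muscle fibre markers (Acta1, Ckm, Myh4 and others) reached 159230 to 229091 CPM in muscle. Summed fat cell markers (Adipoq, Plin1, Fabp4 and others) reached 12242 to 43597 CPM in fat. In fat, B cell markers summed to 24.2 to 622 CPM in WT libraries, 1251 to 3585 in HL1002P and 1637 to 3198 in HH, and T cell markers to 77.4 to 277, 508 to 1024 and 492 to 1055 CPM. Muscle fibre markers also stood high in 1 fat library of each genotype: WT replicate 3 with 16897 CPM, HL1002P replicate 4 with 6144 and HH replicate 1 with 15382. Xist exceeded the summed Y-linked genes, as in females, in 5 of 11 muscle and 4 of 12 fat libraries, among them fat WT replicates 3 and 4 and replicate 4 of both mutants. In bulk tissue, fewer cells of a type and less RNA per cell cannot be told apart, and this holds for every level given here.

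As background, the integrated stress response begins when a kinase (PERK, GCN2, PKR or HRI) phosphorylates the translation initiation factor eIF2α after protein misfolding, amino acid shortage, viral RNA or heme and mitochondrial stress. General translation falls while the Atf4 mRNA, held back by upstream reading frames, is translated more. ATF4 protein pairs with C/EBP and related factors and switches on genes for amino acid synthesis, amino acid uptake and redox balance, and, when stress lasts, for cell death. Because ATF4 is controlled largely at translation, the level of its mRNA need not follow the activity of the protein, which was not measured here. In muscle, mitochondrial stress is known to raise Fgf21 through this route, and in fat FGF21 acts on fat cells through FGFR1 and the co-receptor β-Klotho.

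The DNA element that ATF4 and C/EBP dimers bind was found in the promoters of part of this list, and the promoters that hold it are shown here. The 8 letters TGATGNAA, the core of the C/EBP-ATF response element, were searched on both strands in the window from 250 bases before to 50 bases after each RefSeq gene start (GRCm38.p6, the build of mm10). All 10 genes matched the RefSeq promoter table. A match stood in 5 of the 10, beside 4.51% of the 27025 gene symbols of that table. Each stretch below is the gene's own strand, 5′ to 3′, with the match in capitals; capitals beginning with TT are matches on the opposite strand, and the Slc7a11 stretch holds 1 of each kind.
Chac1, chr2:119351023-119351082, plus strand: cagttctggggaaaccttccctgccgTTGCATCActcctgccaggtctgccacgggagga
Fgf21, chr7:45615596-45615655, minus strand: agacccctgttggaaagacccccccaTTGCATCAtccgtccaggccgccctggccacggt
Slc7a11, chr3:50443637-50443696, minus strand: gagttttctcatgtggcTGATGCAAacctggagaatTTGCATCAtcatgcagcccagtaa
Asns, chr6:7693214-7693243, minus strand: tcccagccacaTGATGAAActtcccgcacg
Trib3, chr2:152344028-152344057, minus strand: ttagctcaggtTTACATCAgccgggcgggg
The matches began 193 bases before the start in Chac1, 139 in Fgf21, 66 and 47 in Slc7a11 and 23 in Asns, and 15 bases after it in Trib3. The letters were not found in the windows of Atf4, Atf5, Ddit3, Psat1 and Mthfd2. A match describes letters, not binding. The genes that hold it did not move as 1 group in the tissues described next: in HL1002P fat, 2 of the 5 with a match (Fgf21, Trib3) fell, and among the 5 without, 2 (Atf5, Psat1) fell and 1 (Mthfd2) rose.

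**Figure D1:**
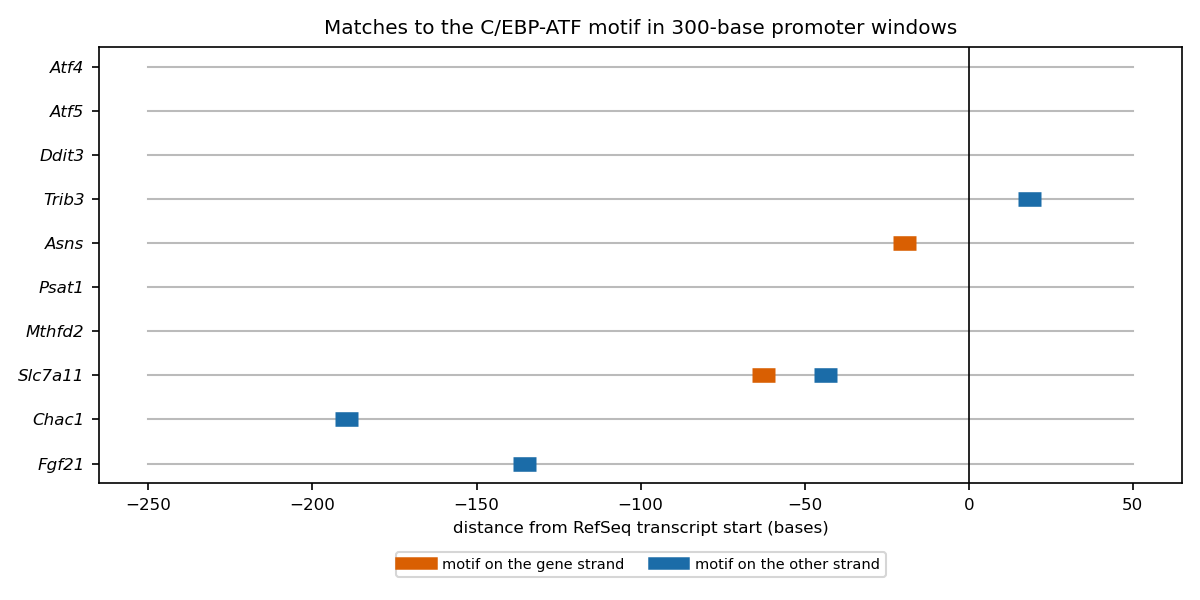
Positions of the searched 8-letter element in the promoter window of each of the 10 genes, in bases from the gene start on the x axis, with 1 row per gene and symbols for the strand of the match. Chac1, Fgf21, Asns and Trib3 each hold 1 match and Slc7a11 holds 2; the other 5 rows are empty.

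In unaltered mice the 10 genes covered a wide range, and the 2 tissues ranked them differently. Per kilobase of exon (CPM per kb, scaled over all 23 libraries), Atf4 led in WT muscle at a mean of 150.5 (127.5 to 186 over 4 libraries). Atf5, a related bZIP factor, followed at 67.9 (58.2 to 82.4), with Chac1, an enzyme that degrades glutathione, at 56.1 (22.4 to 74.6), and the ranges of these 2 neighbours overlapped. Ddit3, which encodes the pro-apoptotic factor CHOP, stood at 13.7 (10.2 to 16.5). Mthfd2, Trib3, Psat1 and Asns lay together between 1.47 and 2.24, with overlapping ranges. Slc7a11 at 0.160 and Fgf21 at 0.106 were lowest.

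In WT fat the order of levels per kilobase was Atf4 at 55.5 (46.0 to 64.5), Atf5 at 50.7 (45.8 to 57.4), Psat1 at 22.9 (12.6 to 33.2), Asns at 16.04 (12.7 to 18.2) and Ddit3 at 12.7 (9.06 to 16.4). Each of these overlapped its neighbour except Atf5 and Psat1. Trib3, a pseudokinase that restrains ATF4, was at 5.17 and Chac1 at 3.47. Fgf21 at 2.40, Mthfd2 at 2.29 and Slc7a11 at 1.24 came last. The amino acid synthesis genes Psat1 and Asns thus stood directly below Atf4 and Atf5 in fat and near the bottom in muscle.

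The WT tissues were compared with edgeR's quasi-likelihood test in a fit of all 23 libraries, with Benjamini-Hochberg adjustment over 16863 genes; 73.5% of those genes differed (31.9% higher and 41.6% lower in muscle). Of the 10, 2 were higher in muscle and 5 lower. Chac1 was higher by a log2 difference of 4.01 ± 0.65 (SE; adjusted p = 1.54e-05), the larger of the differences toward muscle. Psat1, the serine synthesis aminotransferase, was lower, at −3.89 ± 0.38 (adjusted p = 2.22e-08), and Asns, asparagine synthetase, at −3.46 ± 0.39 (adjusted p = 1.49e-07). Trib3 was lower, at −1.63 ± 0.22 (adjusted p = 1.52e-06) and Fgf21 at −4.45 ± 0.92 (adjusted p = 0.000228). Fgf21 did not pass the filter within muscle, where the WT libraries held 0, 6, 4 and 2 counts. It entered this fit through its fat libraries, so the outcome of its test was largely set in advance. Its place among the 5 lower genes rests on that. Slc7a11, the cystine importer, was lower, at −2.94 ± 1.01 (adjusted p = 0.0135), but without fat WT replicate 2, which alone held 70.0 CPM, it was at −1.78 with an adjusted p of 0.103.

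Atf4 itself was higher in muscle by 1.44 ± 0.14 (adjusted p = 1.19e-08) on this scale, and that value rests on the scaling between tissues. With library totals alone its difference was 0.26 (adjusted p = 0.109), and the median over all genes moved from −0.30 to −1.47. The split of all calls then went from 5377 higher and 7009 lower in muscle to 2123 and 11996. Relative to the median gene, Atf4 stood 1.74 above on the first scale and 1.73 above on the other, both in log2 units.

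**Figure D2:**
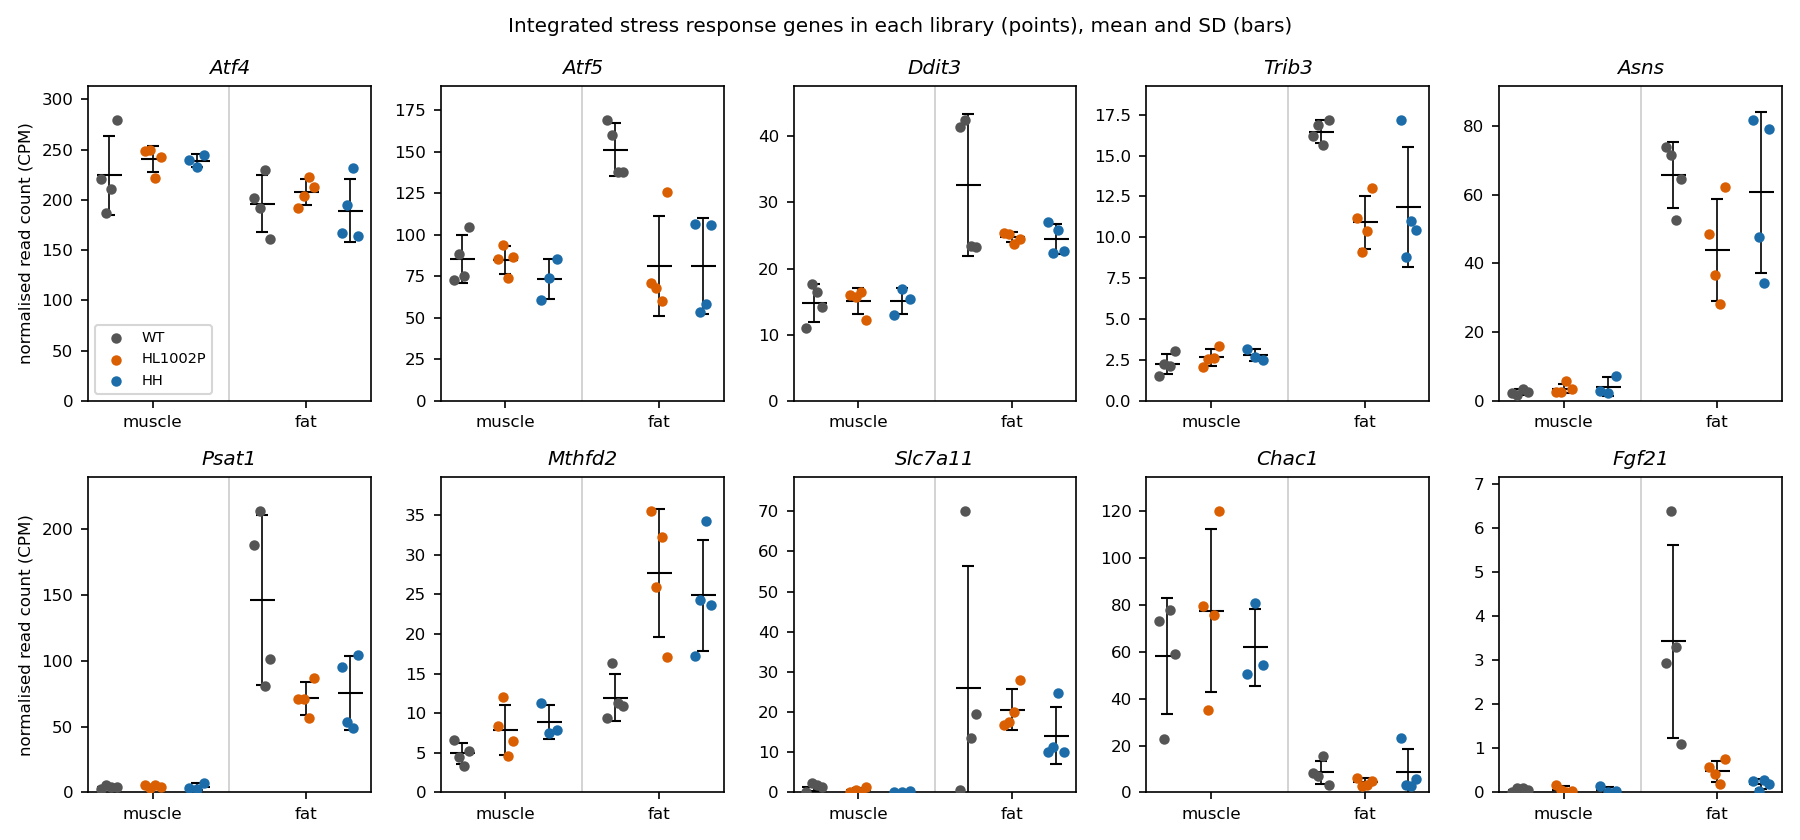
Level of each of the 10 genes in CPM (scaled within each tissue) in every library of the 6 groups, with 1 panel per gene, points for libraries and bars for the mean and SD; an SD that would reach below 0 is clipped there. Atf5, Trib3 and Fgf21 sit lower in mutant than in WT fat and Mthfd2 sits higher, while the muscle groups largely overlap.

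In the fat of HL1002P mice, 4 of the 10 genes fell and 1 rose against WT fat; in HH fat, 2 fell and 1 rose. The list therefore did not move one way: Fgf21, the secreted metabolic hormone, and the factor Atf5 were lower in both mutants, Mthfd2, an enzyme of the mitochondrial folate cycle, was higher in both, and Psat1 and Trib3 passed the test as lower in HL1002P fat. Atf4 mRNA differed by less than its SE in both. By edgeR's quasi-likelihood test with adjustment over 16266 genes, 31.8% of all genes changed in HL1002P fat (17.3% higher, 14.5% lower) and 20.8% in HH fat (12.3% higher, 8.59% lower), so 5 of 10 and 3 of 10 stand beside a high background. The median log2 difference of the 10 was −0.59 in HL1002P and −0.44 in HH fat, beside −0.07 and −0.06 over all genes. The mutants share the WT libraries, so their comparisons are not independent.

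**Figure D3:**
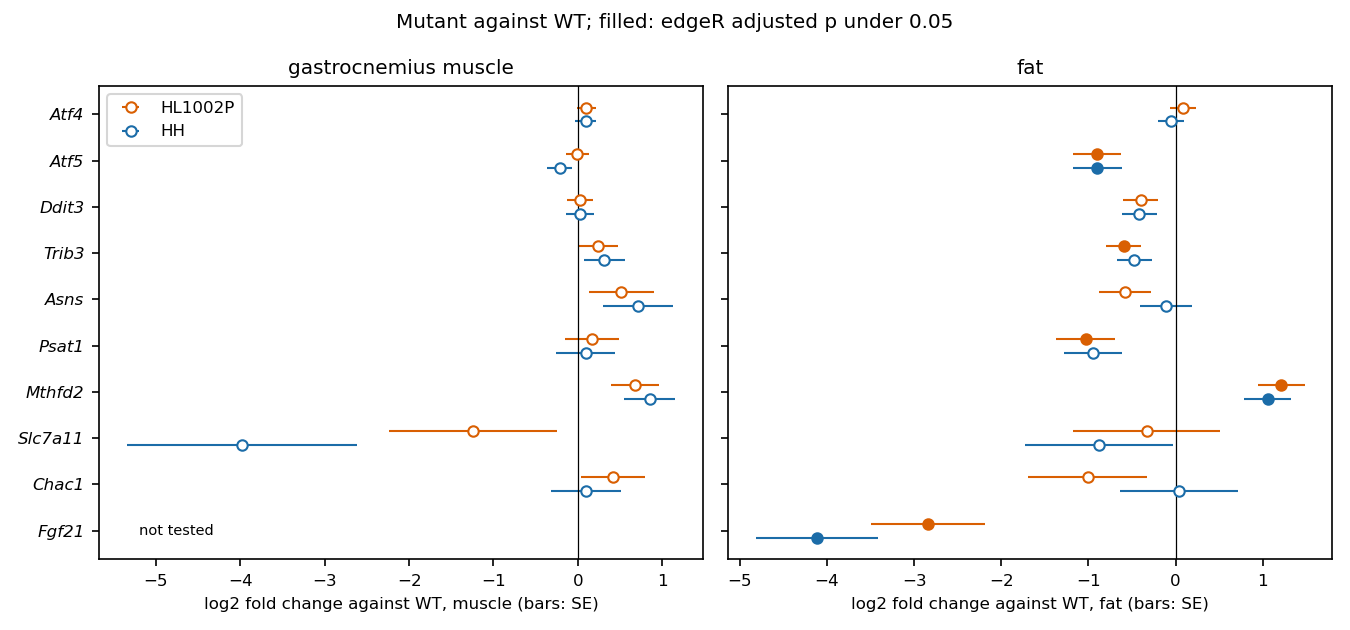
Log2 difference from WT of each of the 10 genes in HL1002P and HH mice, in muscle and fat, with bars of 1 SE from edgeR's fit and filled symbols for an adjusted p under 0.05. In fat, Fgf21 lies lowest at −2.84 and −4.11 and Mthfd2 highest at 1.21 and 1.05, and no muscle value passes the test.

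Among the regulators, Atf4 (chromosome 15, 80255184 to 80257541; gene positions are from GENCODE vM21 on GRCm38, the sequence of mm10) did not differ in fat beyond its spread. Its 4 WT libraries held 202, 191, 230 and 161 CPM, the HL1002P libraries 192, 204, 222 and 213, and the HH libraries 167, 195, 231 and 164. All 3 groups overlapped throughout, and the log2 differences were 0.08 ± 0.14 in HL1002P (adjusted p = 0.668) and −0.05 ± 0.14 in HH (adjusted p = 0.809).

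Atf5 (chromosome 7, 44812256 to 44816658) separated the mutants from WT in every library. It stood at 169, 160, 138 and 138 CPM in WT fat, at 70.8, 68.0, 60.01 and 126 in HL1002P fat and at 106, 53.8, 58.5 and 106 in HH fat. HL1002P replicate 4 and HH replicates 1 and 4 lay nearest the WT range, but none reached it. The log2 difference was −0.90 ± 0.28 in both mutants, with an adjusted p of 0.0315 in HL1002P and 0.0422 in HH. The call held in 3 of 8 fits that left out 1 library in HL1002P (adjusted p up to 0.0875; lost without HL1002P replicate 1, 2 or 3 or WT replicate 1 or 2) and in 3 of 8 in HH (up to 0.113; lost without HH replicate 2 or 3 or WT replicate 1, 2 or 4). Atf5 exons overlap those of Nup62 and Il4i1 on the other strand, and the library kit does not keep strand, so reads of these genes cannot be told apart there. Nup62 averaged 47.0 CPM in WT, 71.0 in HL1002P and 61.8 in HH fat. The level of Il4i1 is not given here, and the part of either gene in the Atf5 values was not tested.

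Ddit3 (chromosome 10, 127290774 to 127296288) was at 41.4, 42.5, 23.5 and 23.3 CPM in WT fat, at 23.7 to 25.5 in HL1002P fat and at 22.4 to 27.05 in HH fat. The WT libraries split in pairs, replicates 3 and 4 lying within or at the edge of the mutant ranges and replicates 1 and 2 far above. Neither difference passed the test (−0.40 ± 0.20, adjusted p = 0.134, and −0.42 ± 0.20, adjusted p = 0.140), although leaving out WT replicate 3 brought HL1002P to an adjusted p of 0.0478. Ddit3 exons overlap those of Mars, a tRNA synthetase gene at 63.6 to 66.5 CPM in the fat group means.

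Trib3 (chromosome 2, 152337422 to 152344032) was at 16.2, 16.9, 15.6 and 17.2 CPM in WT fat, a narrow range, at 11.2, 9.13, 10.4 and 13.0 in HL1002P and at 17.2, 8.79, 11.01 and 10.5 in HH. No HL1002P library reached the WT range, and in HH replicate 1 alone did. The log2 difference was −0.59 ± 0.20 in HL1002P (adjusted p = 0.0430), a call that held in 1 of 8 leave-one-out fits (without HL1002P replicate 4; adjusted p up to 0.122 in the others) and was lost with a sex covariate (0.0591), with upper-quartile scaling (0.0504) and with no filter (0.0544). It was −0.47 ± 0.20 in HH (adjusted p = 0.104), and −0.68 without HH replicate 1 (adjusted p = 0.0188).

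The amino acid and folate enzymes moved in different directions. Psat1 (chromosome 19, 15904678 to 15947337) was at 188, 214, 81.0 and 102 CPM in WT fat, 70.9, 71.1, 56.4 and 86.9 in HL1002P fat, and 95.1, 53.8, 49.1 and 104 in HH fat. As with Ddit3, WT replicates 1 and 2 stood far above the rest, and the highest mutant libraries reached into the range of WT replicates 3 and 4. Psat1 fell, at −1.03 ± 0.34 in HL1002P (adjusted p = 0.0372; held in 3 of 8 leave-one-out fits, up to 0.107, lost without HL1002P replicate 1, 2 or 3 or WT replicate 1 or 2). In HH its difference was −0.95 ± 0.33 (adjusted p = 0.0622), and it passed the test without HH replicate 4 (adjusted p = 0.0478) or WT replicate 3 (0.0274), by DESeq2 (0.0212) and with the replicate block (0.0494).

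Asns (chromosome 6, 7675169 to 7693254) was at 73.9, 71.7, 52.7 and 64.5 CPM in WT fat, 48.5, 36.7, 28.1 and 62.3 in HL1002P and 81.8, 47.7, 34.3 and 79.1 in HH. HL1002P replicate 4 lay inside the WT range and HH replicates 1 and 4 above it. The differences were −0.58 ± 0.30 (adjusted p = 0.143) and −0.11 ± 0.29 (adjusted p = 0.796). In HL1002P, Asns passed the test with the replicate block (adjusted p = 0.0287) and without the 3 libraries richest in muscle fibre markers (0.0372). It passed in 0 of 8 leave-one-out fits.

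Mthfd2 (chromosome 6, 83305691 to 83325908) ran the other way. It was at 9.38, 16.3, 11.3 and 10.9 CPM in WT fat, 35.5, 25.9, 32.2 and 17.1 in HL1002P fat and 17.3, 24.3, 34.3 and 23.7 in HH fat. Every mutant library lay above every WT library, the closest being HL1002P replicate 4 and HH replicate 1. The rise was 1.21 ± 0.27 in HL1002P (adjusted p = 0.0112; held in 8 of 8 leave-one-out fits) and 1.05 ± 0.27 in HH (adjusted p = 0.0235; held in 5 of 8, up to 0.0732, lost without HH replicate 2 or 3 or WT replicate 1). Per kilobase, Mthfd2 moved from the ninth level among the 10 in WT fat to the sixth in both mutants.

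The cystine and glutathione genes Slc7a11 and Chac1 varied too much between fat libraries for a difference to be detected. Slc7a11 (chromosome 3, 49892526 to 50443614) was at 0.708, 70.0, 13.5 and 19.6 CPM in WT fat, 16.8, 17.5, 20.1 and 27.9 in HL1002P and 10.2, 11.4, 24.7 and 10.2 in HH. The WT group alone spans both mutant groups. Its differences were −0.33 ± 0.84 (adjusted p = 0.769) and −0.88 ± 0.85 (adjusted p = 0.450), and both turned positive without WT replicate 2, to 0.88 and 0.35.

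Chac1 (chromosome 2, 119351229 to 119354381) was at 8.21, 7.21, 15.3 and 3.35 CPM in WT fat, 6.34, 2.62, 2.98 and 5.03 in HL1002P and 23.4, 3.17, 2.80 and 5.65 in HH. Its 2 highest fat libraries, HH replicate 1 and WT replicate 3, were also the 2 with the most muscle fibre markers, and Chac1 in muscle lay at 22.8 to 120.0 CPM. The part of these markers in the Chac1 values was not tested. The differences were −1.01 ± 0.68 (adjusted p = 0.262) in HL1002P and 0.04 ± 0.67 (adjusted p = 0.970) in HH, the latter −1.12 without HH replicate 1.

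Fgf21 (chromosome 7, 45613886 to 45615490) showed the largest difference of the 10 in fat. It was at 2.94, 6.38, 3.31 and 1.09 CPM in WT fat, on 133, 199, 197 and 44 counts. HL1002P fat held 0.573, 0.410, 0.196 and 0.748 CPM on 20, 23, 11 and 22 counts, and HH fat 0.268, 0.0399, 0.292 and 0.198 on 13, 2, 7 and 6. No mutant library reached the lowest WT library. The differences were −2.84 ± 0.65 in HL1002P (adjusted p = 0.0123) and −4.11 ± 0.70 in HH (adjusted p = 0.0113), and each held in 8 of 8 leave-one-out fits (−3.13 to −2.35 and −4.41 to −3.61). Fgf21 is known to be made by fat cells and liver: liver markers were at 17.6 to 41.5 CPM in WT, 11.1 to 32.6 in HL1002P and 8.33 to 58.4 in HH fat.

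In HL1002P fat, 1 gene (Mthfd2) lay wholly above WT and 3 (Atf5, Trib3, Fgf21) wholly below, where 15.1% and 12.4% of all tested genes did so. In HH fat, Mthfd2 lay wholly above and Atf5 and Fgf21 wholly below, where 15.0% and 10.9% of all genes did.

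The WT fat libraries split into replicates 1 and 2, with Xist below the Y-linked genes, and replicates 3 and 4, with Xist above. Psat1, Ddit3, Atf5 and Asns followed that split. Fits within each set were made because that split had been seen in these genes, so their values are a description and no p-value is given for them. Among the libraries with Xist below (2 WT, 3 HL1002P and 3 HH), the log2 difference of Psat1 was −1.60 ± 0.28 in HL1002P and −1.59 ± 0.28 in HH. That of Ddit3 was −0.75 ± 0.12 and −0.73 ± 0.12, and that of Atf5 was −1.31 ± 0.27 and −1.16 ± 0.27. Fgf21 stood at −3.57 ± 0.76 and −4.57 ± 0.80 and Mthfd2 at 1.29 ± 0.34 and 0.99 ± 0.34.

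Among the libraries with Xist above (2 WT, 1 HL1002P and 1 HH, each lone library assumed to vary like the WT pair), Psat1 was at −0.07 ± 0.21 and 0.18 ± 0.21 and Atf5 at −0.13 ± 0.15 and −0.39 ± 0.15. Asns was at 0.09 and 0.43, Mthfd2 at 0.63 and 1.09 and Fgf21 at −1.55 and −3.46. None of the 10 passed the test there, and neither did any other gene in either mutant, with 894 and 2756 genes at an unadjusted p under 0.05. In the first set 46.1% and 37.7% of all genes passed. Whether the genotype effect differs between the sets was not tested, and in WT fat the split cannot be told apart from fat cell markers, which summed to 40799 and 43597 CPM in replicates 1 and 2 and to 21230 and 22520 in replicates 3 and 4, nor from epithelial markers, which summed to 1.44 and 2.79 CPM in replicates 1 and 2 and to 1556 and 1434 in replicates 3 and 4.

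Within the 8 mutant fat libraries, 4 of the 10 genes (Atf5, Asns, Psat1 and Mthfd2) set the same 3 libraries apart as the cell markers did. HL1002P replicate 4, HH replicate 1 and HH replicate 4 held the 3 highest levels of Atf5, Asns and Psat1 and the 3 lowest of Mthfd2. The same 3 libraries held the 3 highest sums of fat cell markers and the 3 lowest of B cell, T cell and macrophage markers. The other 6 genes had other libraries among their highest and lowest 3. How many of all tested fat genes set the same 3 libraries apart was not counted, so this split is not shown to be particular to the 4 genes. Of the B cell markers, 10 of 10 were higher in HL1002P and 9 of 10 in HH fat than in WT, and of the T cell markers 9 of 9 and 7 of 9. Of the fat cell markers, 5 of 10 were lower in HL1002P fat; in HH fat 1 passed as higher and none as lower, with a median difference of −0.77 (−1.11 in HL1002P). Of the 10 macrophage markers, 1 was higher in HL1002P fat (sums 1567 to 2097 CPM in WT, 1493 to 3525 in HL1002P, 1863 to 3959 in HH), and of the 7 plasma cell markers 3 were higher in each mutant. No defining marker of these cells was at 0 in any fat group.

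A fit with the mean of the B cell and T cell markers as a covariate called none of the 10 genes, and none of all 16266, in either mutant (433 and 841 genes at an unadjusted p under 0.05). In that fit Fgf21 was at −2.94 and −4.21, Mthfd2 at 0.41 and 0.36, Atf5 at −0.26 and −0.33 and Psat1 at −0.41 in HL1002P. The summed markers of WT and mutant libraries do not overlap, so this covariate and the genotype cannot be told apart. Without the 3 libraries richest in muscle fibre markers, the calls were 6 of 10 in HL1002P and 5 of 10 in HH fat, where 45.2% and 34.0% of all genes passed.

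**Figure D4:**
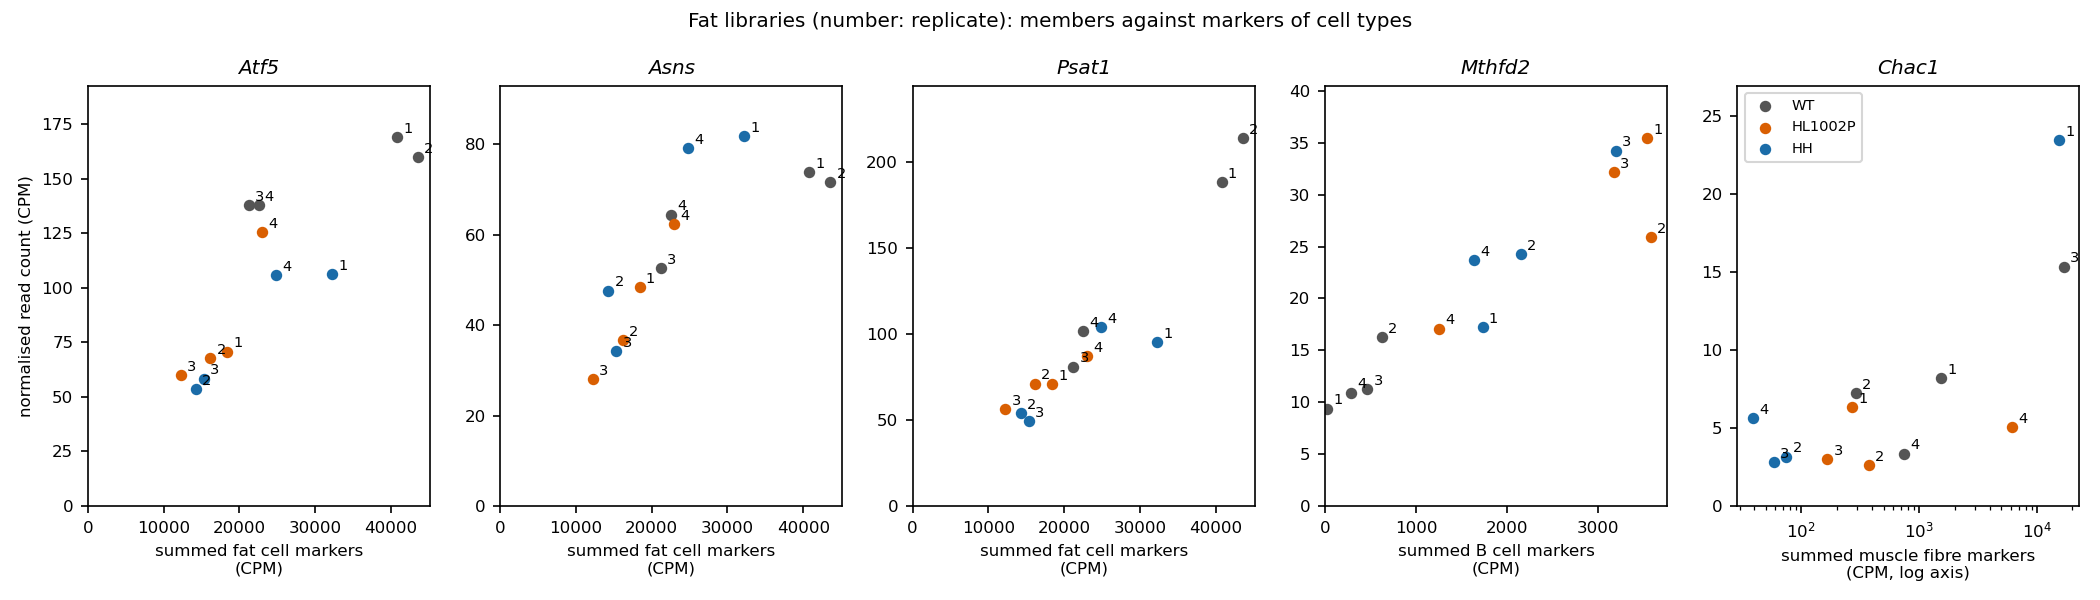
Level (CPM, y axis) of Atf5, Asns and Psat1 against summed fat cell markers, of Mthfd2 against summed B cell markers and of Chac1 against summed muscle fibre markers (CPM, x axis, logarithmic for muscle fibre), in the 12 fat libraries, coloured by genotype and numbered by replicate. HL1002P replicate 4 and HH replicates 1 and 4 lie at the fat cell end of the mutants with the higher Atf5, and HH replicate 1 and WT replicate 3 lie at the muscle fibre end with 23.4 and 15.3 CPM of Chac1.

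In muscle, none of the 9 tested genes passed the test in HL1002P or HH mice, where 0.117% and 0.377% of 14580 genes did. At an unadjusted p under 0.05 there were 1 and 2 of the 9, beside 1537 and 2413 of all 14580 genes. DESeq2 also called none of the 9, where it called 1.29% and 4.48% of all genes. The median difference of the 9 was 0.17 and 0.09, beside 0.00 and 0.01 over all genes. Atf4 was at 220, 187, 210 and 280 CPM in WT muscle, 249, 250, 222 and 243 in HL1002P and 240, 232 and 245 in HH. The mutant libraries lay inside the WT range, with differences of 0.10 ± 0.11 (adjusted p = 0.797) and 0.09 ± 0.12 (adjusted p = 0.756).

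Mthfd2 was the gene whose muscle values lay highest against WT in HH. It was at 6.66, 4.46, 3.397 and 5.19 CPM in WT muscle, 8.35, 12.01, 4.58 and 6.51 in HL1002P and 11.3, 7.52 and 7.87 in HH. All 3 HH libraries lay above all WT libraries, as did 7.38% of tested genes, while HL1002P overlapped WT; none of the 9 genes lay wholly apart in HL1002P, where 5.66% of all genes did. The differences were 0.67 ± 0.29 (adjusted p = 0.455) and 0.85 ± 0.30 (adjusted p = 0.201), neither past the test. Summed macrophage markers lay at 61.7 to 178 CPM in WT muscle, 145 to 438 in HL1002P and 191 to 264 in HH. Epithelial markers summed to 1.09 to 1.93, 6.03 to 155 and 8.76 to 48.6 CPM. No tested marker of either list passed in muscle. A fit with macrophage markers as a covariate called 3 and 48 of all 14580 genes. The part of these cells in the Mthfd2 values was not tested.

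Asns was at 2.26, 1.62, 3.605 and 2.67 CPM in WT muscle, 2.74, 2.57, 5.67 and 3.45 in HL1002P and 3.03, 2.21 and 7.20 in HH. The groups overlapped, at 0.51 ± 0.39 (adjusted p = 0.677) and 0.71 ± 0.41 (adjusted p = 0.419). Slc7a11 rested on few counts: 3, 136, 72 and 57 in WT muscle, 7, 28, 3 and 78 in HL1002P and 0, 0 and 12 in HH. WT replicate 1 was as low as the lowest mutants, and the differences were −1.24 ± 0.999 (adjusted p = 0.699) and −3.99 ± 1.36 (adjusted p = 0.184). Leaving out 1 library moved the HL1002P value between −2.20 (without HL1002P replicate 4) and −0.86 (without WT replicate 2); without HH replicate 3 the HH group was at 0 in both libraries left and no fold is given.

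The other muscle levels overlapped between genotypes. Atf5 lay at 73.1 to 105 CPM in WT, 73.9 to 94.2 in HL1002P and 61.0 to 85.5 in HH muscle. Ddit3 lay at 11.04 to 17.6, 12.2 to 16.5 and 13.0 to 16.9 CPM, and Trib3 at 1.55 to 3.05, 2.07 to 3.38 and 2.51 to 3.19. Psat1, an abundant transcript in fat, was at 2.54 to 5.78, 3.61 to 5.62 and 2.55 to 7.20 CPM. Chac1 lay at 22.8 to 77.6, 35.05 to 120.0 and 50.7 to 80.8 CPM. Fgf21 had 0 to 6 counts per muscle library, 12, 10 and 8 in all over the WT, HL1002P and HH groups, and a difference was not detectable at this depth.

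The mutants were also compared with each other, which asks whether the missense allele beside a hypomorphic one differs from 2 hypomorphic alleles. None of the 10 genes passed the test in fat, where 0.0% of 16266 genes did, and none of 9 in muscle, where 0.0206% of 14580 genes did. No tested gene of the 10 had an unadjusted p under 0.05 in either tissue, where 535 of all genes in fat and 670 in muscle did. None had groups that did not overlap, where 2.13% of all genes in fat and 5.37% in muscle did. DESeq2 called none in either tissue.

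The difference of the genotype effect between tissues was tested in 1 fit of all 23 libraries, treated as independent, over the 12229 genes at 1 CPM or more in both. Of all genes, 18.5% passed for HL1002P and 7.23% for HH. Of the 9 members tested none passed for either. At an unadjusted p under 0.05 there were 3 and 1 of the 9, beside 4500 and 3437 of all 12229 genes. Fgf21 lay below 1 CPM in muscle and was not tested, so nothing is said here about a tissue difference in its effect. For HL1002P, the muscle effect minus the fat effect was 0.78 ± 0.29 for Trib3 (adjusted p = 0.0629), 0.84 ± 0.31 for Atf5 (adjusted p = 0.0647), 1.13 ± 0.48 for Psat1 (adjusted p = 0.0955) and 1.04 ± 0.50 for Asns (adjusted p = 0.138). For HH, Trib3 gave 0.72 ± 0.30 (adjusted p = 0.124). DESeq2 called Trib3 (adjusted p = 0.0371) and Atf5 (0.0377) for HL1002P, along with 25.1% of all genes. A call in fat and its absence in muscle therefore did not by themselves show that the tissues differ.

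Around the 10 genes, 9 lists of other pathway genes, 117 in all, showed mixed directions in fat. In HL1002P fat 11 rose and 16 fell (23.1% of 117, beside 31.8% of all genes), and in HH fat 7 rose and 11 fell (15.4%, beside 20.8%). These totals ranged from 7 to 42 and from 6 to 23 when 1 library was left out; the lowest came without HL1002P replicate 1 and HH replicate 2. In muscle, none of 116 passed in either mutant by edgeR. At an unadjusted p under 0.05 there were 12 and 24 of them, beside 1537 and 2413 of all 14580 genes. DESeq2 called 1 and 9 (0.862% and 7.76%), beside 1.29% and 4.48% of all genes.

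**Figure D5:**
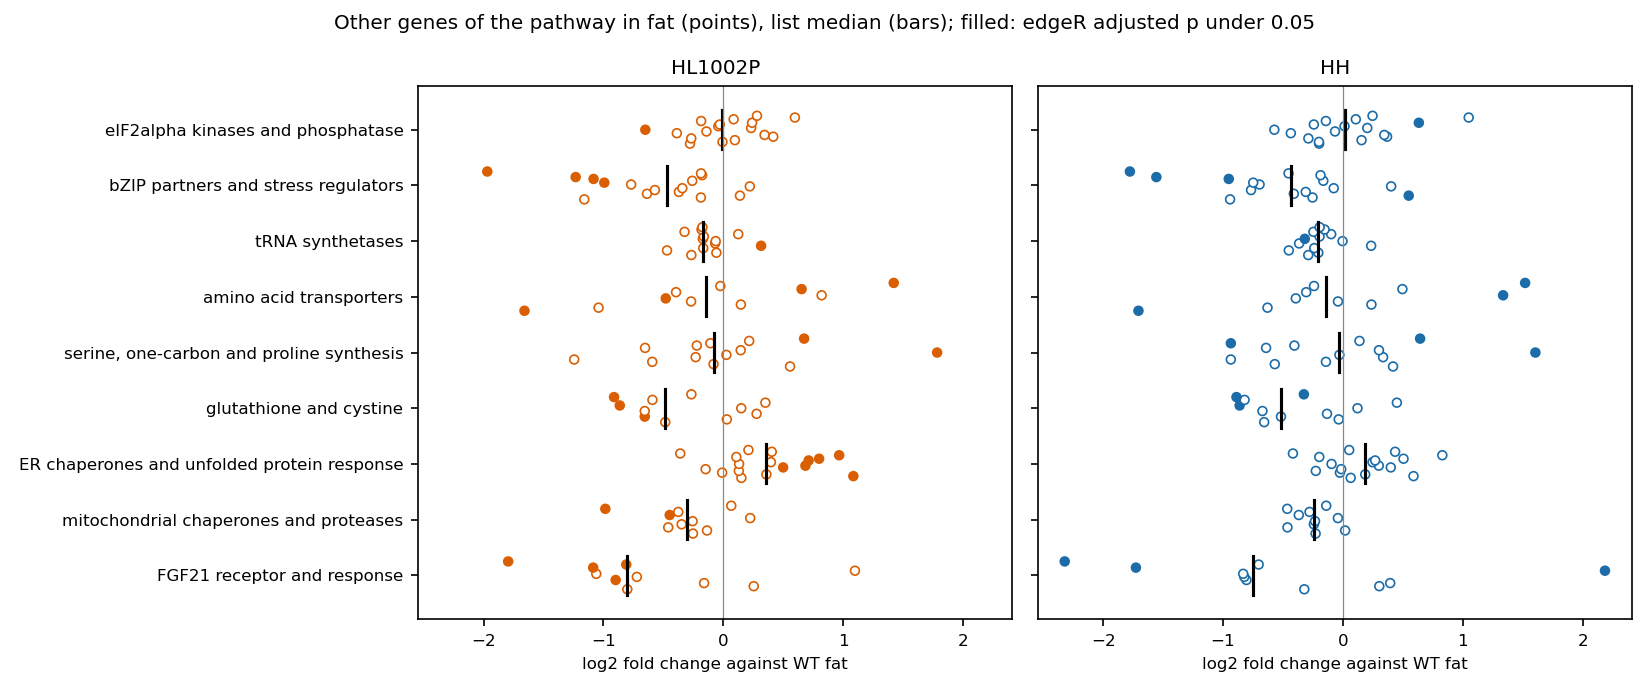
Log2 difference from WT in fat of every gene of the 9 pathway lists, for HL1002P and HH, with filled points for an adjusted p under 0.05 and a bar at each list's median. The medians of the FGF21 receptor list lie at −0.81 and −0.75 and those of the endoplasmic reticulum list at 0.36 and 0.19.

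Upstream of ATF4, the 17 genes of the eIF2α kinases, their cofactors and the eIF2α phosphatase had medians of −0.01 and 0.01. In HL1002P fat 1 passed, Eif2b3, a subunit of the exchange factor that phosphorylated eIF2α blocks, at −0.65 ± 0.22 (adjusted p = 0.0421). In HH fat 1 passed, Gcn1l1, a cofactor of the kinase GCN2, at 0.63 ± 0.11 (adjusted p = 0.0113). Eif2ak4, the gene for GCN2, lies 0.21 Mb from Bub1b on chromosome 2, where DNA near the altered allele can be inherited with it. In fat Eif2ak4 was at 28.5, 22.3, 27.0 and 24.6 CPM in WT, 29.8, 34.5, 35.8 and 29.8 in HL1002P and 27.2, 33.8, 40.3 and 28.7 in HH. HL1002P lay wholly above WT, HH overlapped it, and the differences were 0.34 ± 0.14 (adjusted p = 0.0805) and 0.35 ± 0.14 (adjusted p = 0.0964). In muscle Eif2ak4 was at 7.46, 6.04, 6.15 and 5.23 CPM in WT, 6.54, 6.54, 6.56 and 6.02 in HL1002P and 9.01, 6.94 and 7.67 in HH. The HL1002P libraries lay inside the WT range and wholly below HH, and the difference of HH from WT was 0.34 ± 0.15 (adjusted p = 0.275). Of the 10 members, Chac1 lies 0.75 Mb and Trib3 33.75 Mb from Bub1b.

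Among the bZIP partners and regulators (16 genes), 14 of 16 had negative differences in each mutant. The medians were −0.47 and −0.43, beside −0.07 and −0.06 over all genes. In HL1002P fat 4 of 16 passed as lower and 0 as higher, and in HH fat 3 and 1. Over all genes, 14.5% passed as lower in HL1002P fat and 8.59% in HH fat. The 4 with the smallest p in HL1002P fat all fell: Nupr1, a stress-induced chromatin protein, at −1.08 ± 0.28 (adjusted p = 0.0169), Sesn2, a leucine sensor that restrains mTORC1, at −1.23 ± 0.32 (0.0171), Nfe2l1, a factor for proteasome genes, at −0.99 ± 0.26 (0.0181) and Vldlr, a lipoprotein receptor, at −1.97 ± 0.53 (0.0210). In HH fat Sesn2 fell, at −1.56 ± 0.32 (adjusted p = 0.0128), Nupr1 at −0.95 ± 0.27 (0.0341) and Vldlr at −1.78 ± 0.53 (0.0381), and Bbc3, which encodes the apoptosis protein PUMA, rose by 0.55 ± 0.18 (0.0474). In HL1002P fat these calls held in 5 of 8 leave-one-out fits for Nupr1 and Sesn2, 4 for Nfe2l1 and 3 for Vldlr. In HH fat they held in 8 of 8 for Sesn2, 3 for Nupr1 and Vldlr and 1 for Bbc3. Sesn2 averaged 49.99 ± 19.6 CPM in WT (SD, n = 4), 21.3 ± 8.18 in HL1002P and 17.0 ± 1.11 in HH fat.

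The amino acid transporters (10 genes) moved in both directions. Slc1a4, a carrier of alanine, serine and cysteine, fell, at −1.66 ± 0.33 in HL1002P (adjusted p = 0.00901) and −1.71 ± 0.33 in HH (0.0122), from 18.7 to 5.94 and 5.74 CPM. Slc7a5, the large neutral amino acid carrier of activated lymphocytes and other growing cells, rose by 1.42 ± 0.36 (adjusted p = 0.0163) and 1.52 ± 0.36 (0.0183), from 12.2 to 32.6 and 34.9 CPM. In HL1002P, Slc3a2, its partner chain, fell, at −0.48 ± 0.15 (adjusted p = 0.0312) and Slc7a1, a carrier of cationic amino acids, rose by 0.65 ± 0.21 (0.0347). In HH, Slc43a1 rose by 1.34 ± 0.34 (adjusted p = 0.0237).

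In the list of serine, folate and proline metabolism (13 genes), 2 genes rose in each mutant. Over all genes, 17.3% rose in HL1002P fat and 12.3% in HH fat, so this count does not set the list apart. Both genes act with Mthfd2 in the mitochondrial folate cycle. Mthfd1l, which releases formate, rose by 1.78 ± 0.29 in HL1002P (adjusted p = 0.00775) and 1.61 ± 0.29 in HH (0.0116), from 9.67 ± 2.21 CPM (SD, n = 4) in WT to 33.3 ± 11.7 and 29.4 ± 6.51. Shmt2, which feeds serine carbon into the cycle, rose by 0.67 ± 0.16 (adjusted p = 0.0144) and 0.64 ± 0.16 (0.0231). Pycr1, the proline synthesis reductase, fell in HH, at −0.93 ± 0.27 (adjusted p = 0.0341). The medians of the whole list, −0.08 and −0.03, were near those of all genes.

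The glutathione and cystine genes (11) had medians of −0.48 and −0.52. Srxn1, sulfiredoxin, fell, at −0.91 ± 0.22 (adjusted p = 0.0136) in HL1002P and −0.89 ± 0.22 (0.0203) in HH. Gss, glutathione synthetase, fell, at −0.86 ± 0.24 in both (0.0224 and 0.0302). Gclm, a subunit of the enzyme before it, fell in HL1002P, at −0.66 ± 0.17 (adjusted p = 0.0182), and Txnrd1, thioredoxin reductase, in HH at −0.33 ± 0.10 (0.0356).

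Of the endoplasmic reticulum chaperones and unfolded protein response genes (17), 6 rose and none fell in HL1002P fat. Over all genes there, 17.3% rose and 14.5% fell. The call of Pdia4 held in 8 of 8 leave-one-out fits, those of Creld2, Herpud1 and Manf in 3 of 8, and the others in 1 or 2 of 8. The 4 with the smallest p were Pdia4, a disulfide isomerase, at 0.80 ± 0.20 (adjusted p = 0.0149), Creld2 at 1.08 ± 0.29 (0.0211), Herpud1 at 0.50 ± 0.14 (0.0251) and Manf at 0.71 ± 0.21 (0.0280). None passed in HH fat by edgeR, with 5 at an unadjusted p under 0.05, beside 6418 of all 16266 genes. DESeq2 called 3 of the list there, beside 32.0% of all genes. The genes of this list are also high in antibody-secreting cells. Markers of those cells summed to 123 to 240 CPM in WT, 293 to 2557 in HL1002P and 306 to 1026 in HH fat. The part of those cells in these values was not tested.

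Among the tRNA synthetases (13 genes), 1 passed in each mutant: Iars rose by 0.32 ± 0.10 in HL1002P (adjusted p = 0.0341) and Nars fell, at −0.32 ± 0.10 in HH (0.0459). Among the mitochondrial chaperones and proteases (10), Trap1 fell, at −0.98 ± 0.30 (adjusted p = 0.0293) and Lonp1 at −0.45 ± 0.16 (0.0474) in HL1002P. None passed in HH by edgeR, with 3 at an unadjusted p under 0.05, beside 6418 of all 16266 genes. DESeq2 called 1 of the list there, beside 32.0% of all genes.

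The FGF21 receptors and response genes (10) had the lowest medians of the 9 lists. Klb, the β-Klotho co-receptor that gives fat cells their response to FGF21, was at 48.2 ± 12.01 CPM in WT (SD, n = 4), 22.7 ± 10.7 in HL1002P and 14.6 ± 3.11 in HH fat. It fell, at −1.09 ± 0.32 in HL1002P (adjusted p = 0.0281) and −1.73 ± 0.33 in HH (0.0119). Fgfr1, the receptor it joins, fell in HL1002P, at −0.90 ± 0.28 (adjusted p = 0.0308). Of the feedback inhibitors of receptor signalling, Spry4 fell, at −1.79 ± 0.44 (adjusted p = 0.0150) in HL1002P and −2.32 ± 0.45 (0.0122) in HH. Spry2 fell in HL1002P, at −0.81 ± 0.25 (0.0335), and did not pass in HH. Dusp4 and Dusp6, also in the list, passed in neither mutant. In all, 4 of the 10 genes fell in HL1002P and 2 in HH, beside 14.5% and 8.59% of all genes. Fgfr4 rose in HH by 2.19 ± 0.64 (adjusted p = 0.0355). Fat cell markers had median log2 differences of −1.11 in HL1002P fat (5 of 10 passed as lower) and −0.77 in HH fat (0 of 10), and their part in these values was not tested.

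The calls that held in all 8 leave-one-out fits were those of Mthfd1l, Pdia4, Shmt2, Slc1a4, Slc7a5 and Srxn1 in HL1002P fat (6 of 27) and of Gcn1l1, Klb, Mthfd1l, Sesn2, Slc1a4 and Spry4 in HH fat (6 of 18).

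The genes whose level followed that of Atf4 most closely were ranked with the other 9 members left out. Over the 11 muscle libraries and 14571 genes, the highest correlations of log2 CPM with Atf4 were those of Tatdn3 (Pearson r = 0.891) and the ribosomal protein genes Rps23 (0.877) and Rpl28 (0.871). Over the 12 fat libraries and 16256 genes they were those of Tab2 (0.888), Gm10863 (0.844) and Tssc4 (0.840). These are descriptions of libraries that share groups and depth.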

How the data were processed

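The deposited table gives raw counts of reads per gene symbol for 23 libraries; per the submitters' processing notes the authors used TopHat2 2.0.14, Bowtie2 2.2.6, featureCounts 1.4.6 and build mm10. Per the labels' protocols, libraries came from a TruSeq RNA v2 kit, which does not mark strand. The annotation, strand setting and treatment of reads with several matches are not given in the sources used here. Of 24062 symbols, 3605 had no count. No library pair was identical.

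The main test was that of edgeR 4.0.16 (R 4.3.3, limma 3.58.1): TMM factors, filterByExpr by group, quasi-likelihood F tests with all libraries of a tissue in 1 fit, Benjamini-Hochberg adjustment over all tested genes, and a call at an adjusted p under 0.05. Levels are CPM with TMM factors of the tissue; levels per kilobase use GENCODE exon lengths and factors over all 23 libraries. Interactions and the comparison of WT tissues used 1 fit of all 23 libraries. The correlations with Atf4 used log2(CPM + 0.5). The scripts were tested on simulated data. DESeq2 1.42.0, other filters and scaling, covariates and fits without each library were alternatives.

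The members, the pathway lists and the markers were chosen with earlier results of these data known. Named were all members, up to 4 genes per pathway list and mutant comparison past the test with the smallest p, the 3 genes most like Atf4 per tissue, and Eif2ak4. The labels state no pairing of samples by replicate number. Deviations of same-numbered HL1002P and HH muscle samples correlated in all 3 pairs (0.217 to 0.286). In both groups, replicates 1 and 2 had Xist below the Y-linked genes and replicate 3 above. The part of this in the correlations was not tested. With the number as a block, none of the 9 tested genes passed between the mutants in muscle, as without it.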

Additional observations from a re-analysis of the deposited data

Results flagged for a closer look

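In each group of 4 libraries, the highest and lowest library was compared with the others for each of the 10 genes, and 3 of 48 groups held a library whose gap to its nearest neighbour was too large a share of the group's range by Dixon's test at the 95% level. Chance flags about 1 in 20 groups. Atf5 in HL1002P fat replicate 4 was at 125.8 CPM, above 60.01 to 70.8 in the other replicates. Chac1 in HH fat replicate 1 was at 23.4 CPM, above 2.80 to 5.65 in the others. Slc7a11 in HH fat replicate 3 was at 24.7 CPM, above 10.2 to 11.4 in the others.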

How the results depend on the processing

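Same-numbered samples gave deviation correlations of 0.089 to 0.214 for HL1002P against WT muscle and 0.002 to 0.28 for HH against WT muscle. In fat these correlations ran from 0.035 to 0.527 between the mutants and from −0.391 to 0.451 against WT. The labels state no pairing, so the replicate block is given as a number only. Calls in fat depended on the libraries kept. Leaving out 1 library gave 2 to 5 of the 10 genes called in HL1002P fat (5 with all) and 1 to 4 in HH fat (3 with all), 0 in muscle and between mutants, 0 to 2 and 0 to 1 in the interactions, and 6 to 7 between WT tissues. The whole table moved as well: 5167 genes were called in HL1002P fat, 2023 to 7018 without 1 library, and 3391 in HH fat, 829 to 4170. The lymphocyte marker covariate and the libraries with Xist above the Y-linked genes each left 0 called in both mutants. HH fat gave 5 without the 3 libraries rich in muscle fibre markers. The HL1002P interaction gave 2 genes by DESeq2 and 3 with the replicate block, and the HH interaction 1 with the block. With the block, Fgf21 (−3.53) and Slc7a11 (−4.35) lost their calls between WT tissues.

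Directions turned for genes that had not passed the test and for 5 that had. Without 1 library, the log2 difference of Asns in HH fat ran from −0.27 to 0.11, Atf4 from −0.14 to 0.061 in HH and −0.0013 to 0.17 in HL1002P fat, Chac1 in HH fat from −1.12 to 0.49, and Slc7a11 from −1.27 to 0.35 in HH and −0.74 to 0.88 in HL1002P. With the lymphocyte covariate Asns was at 0.44 in HH and 0.060 in HL1002P fat and Fgfr4 at −0.11 in HH. With the replicate block Chac1 was at −0.41 in HH and Slc7a11 at 0.31 in HL1002P fat. Without the muscle fibre libraries, HH Atf4 was at 0.087 and Chac1 at −0.69. With Xist below, HH fat Atf4 was at 0.024. With Xist above, fat values were 0.43 (HH) and 0.092 (HL1002P) for Asns, −0.73 for Chac1 and 0.18 for Psat1 in HH, and 0.072 for Ddit3, 0.75 for Slc7a11, −0.024 for Creld2, 0.020 for Lonp1, 0.015 for Slc3a2 and −0.032 for Slc7a1 in HL1002P; muscle Atf4 was at −0.0060 (HH) and −0.077 (HL1002P). The cause was not tested. Fgf21 in muscle and low counts of Slc7a11 there are limited by depth.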

Other observations

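Slc7a5, the large neutral amino acid carrier that rose in mutant fat, also stood above WT in mutant muscle; it was singled out after its values were seen. Muscle levels were 5.93 to 6.95 CPM in WT, 8.58 to 16.1 in HL1002P and 8.75 to 35.7 in HH, without overlap in either comparison; 5.66% of all muscle genes lay apart in either direction in HL1002P and 7.38% lay above WT in HH. The log2 differences of 0.95 (adjusted p = 0.406) and 1.503 (adjusted p = 0.0944) did not pass edgeR's test; DESeq2 called the one in HH (adjusted p = 0.00514).

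The searched promoter element stood in 5 of 9 tRNA synthetase genes with a RefSeq promoter (Aars, Gars, Iars, Tars and Yars), in 4 of 13 bZIP partners and regulators (Atf3, Jdp2, Nupr1 and Vldlr), in 2 of 11 genes of serine, folate and proline metabolism (Pck2 and Pycr1), in 1 of 7 transporters (Slc1a4) and in 1 of 15 endoplasmic reticulum genes (Herpud1). The other 4 lists held none.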
